A study of Mus musculus with 24 samples.

Results

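The genes described here were 34 genes for non-collagen proteins of the extracellular matrix: glycoproteins, elastic fibre components, matrix cross-linking enzymes and proteoglycans. They were chosen by symbol, with earlier results of these data known, so their shares beside those of all genes only describe them. All 34 were found among the 25369 genes of the count tables and passed the filter on low counts, which left 14789 genes. By role they comprised 13 adhesive and matricellular glycoproteins, 11 components of elastic fibres and microfibrils, 3 lysyl oxidases, 6 small leucine-rich proteoglycans and the large proteoglycan Vcan. RNA came from the left quadriceps muscle of mice killed at 25 weeks of age, snap frozen and sequenced in bulk. Lama2-CMD mice, a model of congenital muscular dystrophy that carries a mutation of Lama2 (the alpha-2 chain of muscle laminin), were compared with wild-type (WT) mice on each of 4 backgrounds. These were the parental strains C57BL/6J (here B6) and DBA/2J (here D2), and 67 and 87, labelled CMD-67 and CMD-87 for WT and CMD mice alike and named BXD-67 and BXD-87 in the study's design. The BXD strains are recombinant inbred mice bred from these parents. Each of the 8 groups had 3 libraries, numbered 1 to 24 strain by strain in the order B6, 67, 87, D2, with WT before CMD in each. Libraries 1, 4, 6, 7, 13, 17, 18, 19 and 21 were labelled male and the others female. Labelled sex was thus not balanced between WT and CMD in any strain. In the WT groups of B6, 67 and 87, libraries 1, 7 and 13 were the only ones labelled male. The Lama2 allele is not given in the sources used here, and WT mice received no treatment that the labels name.

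In muscle, the matrix around each fibre is made mostly by fibroblasts and fibro-adipogenic progenitors. Structural proteins such as fibrillins and elastin are assembled outside the cell and joined by lysyl oxidases, and small leucine-rich proteoglycans bind collagen fibrils and growth factors. Matricellular proteins such as periostin and the CCN proteins have little structural role, and act on adhesion and signalling during repair. Laminin-211, which contains the Lama2 product, ties the fibre surface to this matrix, and fibrosis is a known feature of its loss.

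Libraries held 32292613 to 51715975 exon reads. Values below are CPM, total exon reads relative to a library total adjusted by TMM, and a gene is said to have risen or fallen where edgeR's quasi-likelihood test gave a Benjamini-Hochberg adjusted p under 0.05 over all 14789 genes. Lama2 itself ranged from 36.5 to 50.3 CPM in B6 WT and 16.04 to 23.9 in B6 CMD, and fell in B6 (log2 fold change -1.004, adjusted p = 0.00642) and in 87 (-0.89, adjusted p = 0.00939). It did not pass the test in 67 (0.04, adjusted p = 0.912) or D2 (-0.37, adjusted p = 0.244), and whether the mutation removes these reads is not stated in the labels. The summed level of 9 skeletal muscle fibre genes was 113565 to 244884 CPM over all libraries, so muscle RNA led each of them. That sum was 210544 to 244884 CPM in B6 WT and 127042 to 149559 in B6 CMD, 235674 to 243728 in 67 WT and 124843 to 136465 in 67 CMD, 198113 to 227938 in 87 WT and 126576 to 184848 in 87 CMD, and 180034 to 198820 in D2 WT and 113565 to 171347 in D2 CMD. CPM are shares of a library, and the part of this lower share of fibre RNA in the results was not tested. In bulk tissue fewer cells of a type and less RNA per cell cannot be told apart.

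Some libraries stood apart from their group. Reads from 4 Y-linked genes went against the sex label in 4 D2 libraries: libraries 19 and 21 were labelled male and had 1 and 0 such reads, and libraries 22 and 24 were labelled female and had 4927 and 4858. The sex label was therefore not a term of the fit. Whether these 4 libraries also carry the wrong genotype label was not tested. Lama2 did not separate the groups in D2, at 23.8 to 42.5 CPM in the libraries labelled WT and 23.3 to 29.04 CPM in those labelled CMD. It did not separate them in 67 either (24.3 to 28.4 and 20 to 33.8 CPM), so it cannot decide the D2 labels. Sums over 7 cartilage and bone genes were 1.33 to 2.29 CPM in D2 WT and 4.22 to 9.40 in D2 CMD. Sums over 12 macrophage genes overlapped, at 91 to 155 and 152 to 524 CPM. With the Y-linked reads unexplained, the D2 labels, and with them every D2 value given here, are in doubt. Library 16 (87 CMD) had 9664 CPM over 6 stress and atrophy genes, where libraries 17 and 18 had 712 and 798. Library 23 (D2 CMD) had 432 CPM over 7 Schwann cell genes, where libraries 22 and 24 had 86.2 and 259. Over 7 adipocyte genes, libraries 22 and 23 had 1846 and 2294 CPM and library 24 had 216. Among the WT libraries the members were high in library 1 of B6, which was the highest of its 3 for 28 of 34 members (36.8% of all tested genes), in library 13 of 87 (24 of 34, against 35.1%) and in library 19 of D2 (27 of 34, against 33.6%). Library 20 of D2 WT was the lowest of its 3 for 32 of 34 (38.5% of all tested genes). In the 87 CMD group, library 16 was the lowest for 26 of 34 members (45.1% of all tested genes) and library 18 the highest for 24 (31.3%). Counts of called members in 87 and D2 are given below with and without libraries 16 and 23. For other gene lists, counts that differ are given in 87 without library 16 and in D2 without library 23. List counts in D2 also moved without library 16, and those are not given.

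In CMD muscle of B6, 67 and D2 the members that changed all rose, and in 87 more members fell than rose. That excess of falls in 87 was not seen without library 16, where 3 rose and 3 fell. In B6, 12 of 34 members rose, against 8.07% of all tested genes that rose there, and 0 fell (10.4% of all genes). In 67, 16 rose (11.4% of all genes) and 0 fell (10.3%). In D2, 7 rose (11.2% of all genes) and 0 fell (9.03%). In 87, 2 rose (11.5% of all genes) and 9 fell (9.38%). Counted in either direction, the members called were 12, 16, 11 and 7 in B6, 67, 87 and D2, against 18.4%, 21.7%, 20.8% and 20.2% of all genes. In D2 the 7 of 34 members (20.6%) called in either direction was close to the share over all genes. The median log2 fold change of the members was 0.67 in B6, 0.91 in 67, -0.44 in 87 and 0.44 in D2, where that of all tested genes was 0.01, 0.00, 0.01 and 0.03. These counts moved with single libraries. In B6, 5, 7 and 6 members were called without library 2, 3 and 5 (14.7%, 20.6% and 17.6% of the 34). The shares of all genes called there were 7.59%, 11.2% and 7.65%. In 67, 9, 10 and 9 were called without library 8, 9 and 11 (26.5%, 29.4% and 26.5%), against 15.6%, 12.8% and 14.8% of all genes. The number of members called also moved with a sex term. In 67, 22 members rose and 0 fell with sex as labelled, so 64.7% of the 34 were called, against 24.4% of all genes in either direction. Of all 14789 genes, 1973 rose in that fit. With sex from Y-linked reads, 20 rose and 0 fell in 67 (58.8% called, against 22.8% in either direction), and 1838 of all 14789 genes rose.

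**Figure D1:**
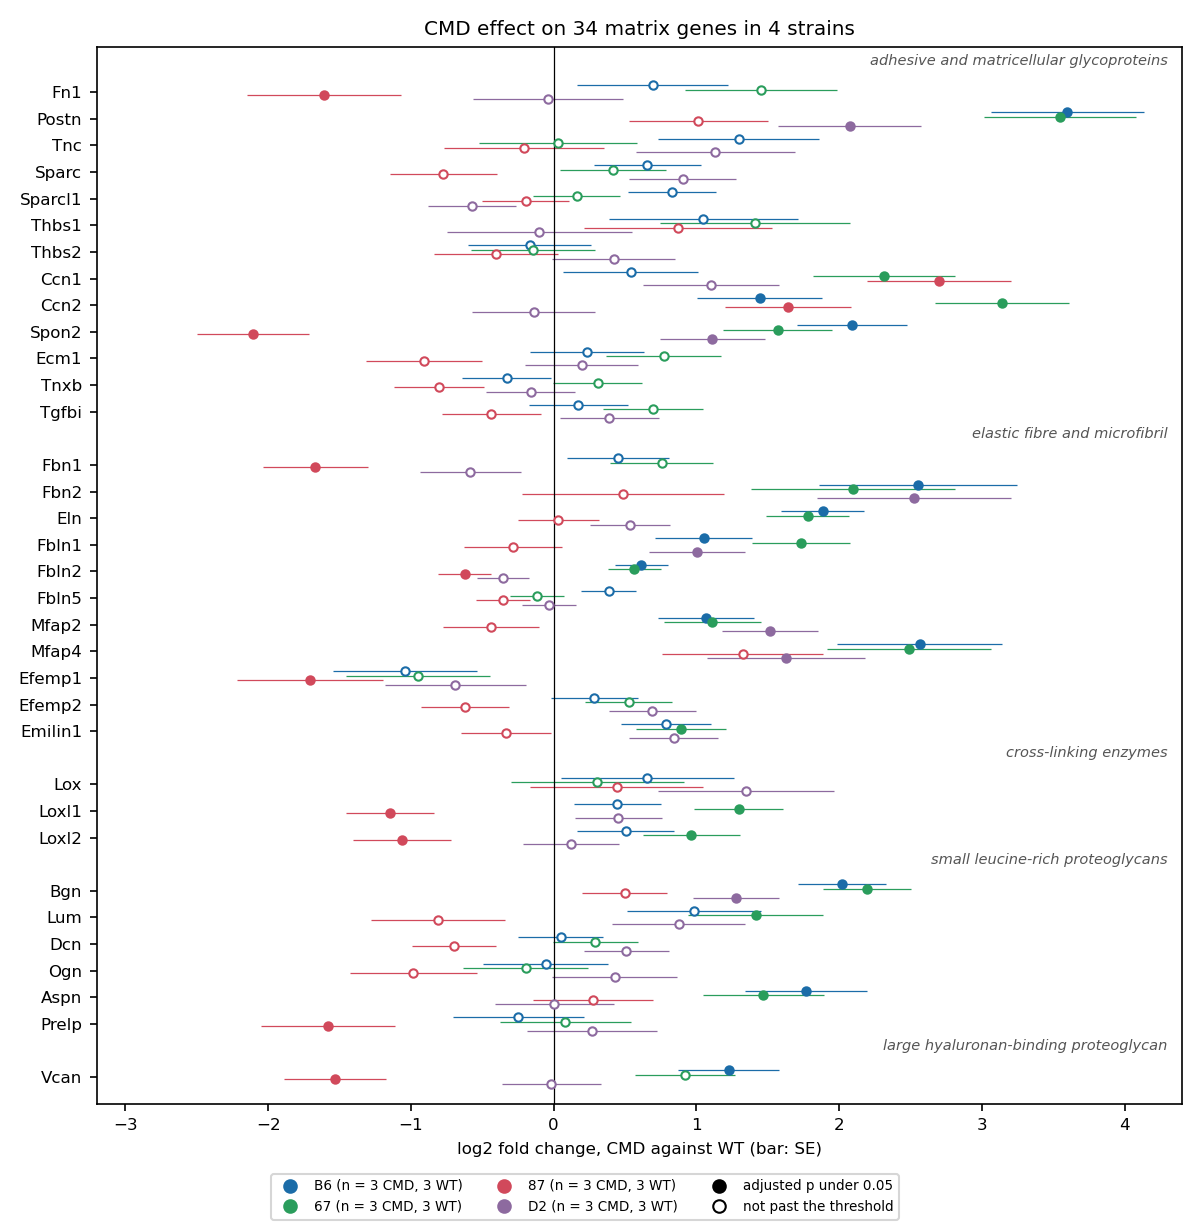
Log2 fold change of CMD against WT for each of the 34 genes (rows, grouped by role) in the 4 strains (colours), with bars for the SE and n = 3 libraries per group. Filled points passed the threshold of 0.05 on the adjusted p, and the points of strain 87 lie lowest for 28 of the 34 genes.

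The libraries separated in the same way. All 3 CMD libraries lay above all 3 WT libraries for 19 of 34 members in B6 (19.7% of all tested genes), 21 in 67 (22.2%), 14 in D2 (21.4%) and 2 in 87 (15.5%). All 3 CMD libraries lay below all WT libraries for 10 of 34 members in 87 (15.1% of all tested genes), 2 in D2 (21.5%), 1 in 67 (21.8%) and 0 in B6 (21.6%). Of the members, 13 were called in 0 strains, 6 in 1 strain, 6 in 2, 8 in 3 and 1, Spon2, in all 4. The 7 that rose in each of B6, 67 and D2 were Postn, Spon2, Fbn2, Mfap2, Mfap4, Fbln1 and Bgn. The 5 that rose in at least 1 strain and fell in 87 were Spon2, Loxl1, Loxl2, Vcan and Fbln2. A further 4 fell in 87 and were called nowhere else: Fn1, Prelp, Fbn1 and Efemp1. For 28 of 34 members the CMD effect was lowest in 87, against 28.9% of all tested genes. The 6 exceptions were Thbs1, Sparcl1, Ccn1, Ccn2, Lox and Aspn.

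Of the 13 adhesive and matricellular genes, 3 rose in B6, 4 in 67 and 2 in D2, and in 87 2 rose and 2 fell. Of all tested genes, 8.07%, 11.4% and 11.2% rose in B6, 67 and D2, and in 87 11.5% rose and 9.38% fell. Whether the counts by role differ from these shares was not tested. Postn encodes periostin, a matricellular protein secreted by activated fibroblasts. In B6, Postn was measured at 5.64, 2.99 and 4.82 CPM in the WT libraries and 49.02, 66.9 and 46.6 CPM in the CMD libraries. In 67, Postn was measured at 3.07, 4.18 and 6.56 CPM in the WT libraries and 66.6, 43.1 and 51.6 CPM in the CMD libraries. The 2 sets did not overlap in either strain, and Postn was 12.1-fold higher in CMD in B6, the largest fold change of any member there. In D2, Postn was measured at 12.4, 4.68 and 7.89 CPM in the WT libraries and 34.8, 38.2 and 32.2 CPM in the CMD libraries, again without overlap. In 87 the values were 11.9, 4.24 and 7.60 CPM in the WT libraries and 5.30, 10.6 and 31.98 CPM in the CMD libraries, and only library 18 exceeded the highest WT library. For Postn the log2 fold changes ± SE were 3.60 ± 0.54 in B6 (adjusted p = 0.000445), 2.07 ± 0.50 in D2 (adjusted p = 0.00785), 3.55 ± 0.53 in 67 (adjusted p = 0.000264) and 1.01 ± 0.49 in 87 (adjusted p = 0.15). Postn stayed past the threshold in B6, 67 and D2 with any single library left out (highest adjusted p = 0.0487). With library 16 left out, Postn also rose in 87, by 1.44 (adjusted p = 0.0359) on the log2 scale.

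Spon2, which encodes spondin 2, a secreted protein of the F-spondin family, was the only member called in all 4 strains, and its direction in 87 was opposite to that in the others. In B6, Spon2 was measured at 1.58, 1.61 and 0.959 CPM in the WT libraries and 7.77, 3.59 and 6.29 CPM in the CMD libraries. In 67, Spon2 was measured at 0.960, 1.56 and 1.60 CPM in the WT libraries and 2.44, 6.74 and 3.05 CPM in the CMD libraries. In D2, Spon2 was measured at 4.20, 2.53 and 2.39 CPM in the WT libraries and 6.10, 7.87 and 5.74 CPM in the CMD libraries. CMD libraries lay above WT libraries in these 3 strains, without overlap. In 87, Spon2 was measured at 3.76, 4.27 and 2.96 CPM in the WT libraries and 0.734, 0.618 and 1.17 CPM in the CMD libraries, with every CMD library below every WT library. The mean WT level of Spon2 was 3.66 CPM in 87 and 1.38 CPM in B6. For Spon2 the log2 fold changes ± SE were 2.09 ± 0.39 in B6 (adjusted p = 0.00196), 1.11 ± 0.37 in D2 (adjusted p = 0.0387), 1.57 ± 0.38 in 67 (adjusted p = 0.00726) and -2.11 ± 0.39 in 87 (adjusted p = 0.00127). Spon2 stayed past the threshold in B6 and 87 with any single library left out (highest adjusted p = 0.0121), and its call ended in 67 without library 11 (highest adjusted p = 0.0671) and in D2 without library 8, 13, 20, 21, 23 or 24 (highest adjusted p = 0.152). Without library 16, Spon2 in 87 had a log2 fold change of -2.01 (adjusted p = 0.00767). With sex from Y-linked reads as a term, Spon2 no longer passed in D2, at 1.06 (adjusted p = 0.0719).

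Ccn1 and Ccn2 encode CCN family matricellular proteins, known as targets of the YAP and TEAD transcription regulators and of TGF-beta signalling, and Ccn2 is widely known as CTGF. They were the 2 members that rose in 87. In 67, Ccn1 was measured at 11.3, 19.1 and 19.3 CPM in the WT libraries and 71.3, 42.4 and 133 CPM in the CMD libraries. In 87, Ccn1 was measured at 15.5, 13.04 and 12.5 CPM in the WT libraries and 171, 49.2 and 46.8 CPM in the CMD libraries, and library 16 held the highest value of any library. In B6, Ccn1 was measured at 21.1, 17.8 and 46.7 CPM in the WT libraries and 43.4, 43.9 and 37.1 CPM in the CMD libraries, and the groups overlapped. In D2, Ccn1 was measured at 53.5, 35.4 and 52.4 CPM in the WT libraries and 54.6, 122 and 126 CPM in the CMD libraries, with all CMD libraries above WT, although the test was not passed. For Ccn1 the log2 fold changes ± SE were 0.54 ± 0.48 in B6 (adjusted p = 0.457), 1.10 ± 0.48 in D2 (adjusted p = 0.106), 2.31 ± 0.50 in 67 (adjusted p = 0.00325) and 2.70 ± 0.50 in 87 (adjusted p = 0.00128). Ccn1 stayed past the threshold in 67 and 87 with any single library left out (highest adjusted p = 0.0227). Without library 16, Ccn1 in 87 had a log2 fold change of 1.80 (adjusted p = 0.00874).

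Ccn2 rose in 3 strains. In B6, Ccn2 was measured at 8.60, 15.6 and 19.3 CPM in the WT libraries and 36.5, 52.2 and 29.7 CPM in the CMD libraries. In 67, Ccn2 was measured at 3.92, 10.5 and 8.16 CPM in the WT libraries and 63.5, 54.1 and 81.2 CPM in the CMD libraries. In both, every CMD library lay above every WT library. In 87, Ccn2 was measured at 9.58, 8.18 and 3.69 CPM in the WT libraries and 36.3, 12.8 and 17.7 CPM in the CMD libraries, with the groups apart but libraries 17 and 18 closer to WT than library 16. In D2, Ccn2 was measured at 20, 15.6 and 20.9 CPM in the WT libraries and 9.95, 25.7 and 15.6 CPM in the CMD libraries, and the groups overlapped. For Ccn2 the log2 fold changes ± SE were 1.44 ± 0.44 in B6 (adjusted p = 0.0279), -0.14 ± 0.43 in D2 (adjusted p = 0.842), 3.14 ± 0.47 in 67 (adjusted p = 0.000244) and 1.64 ± 0.44 in 87 (adjusted p = 0.0133). Ccn2 stayed past the threshold in 67 with any single library left out (highest adjusted p = 0.00225), and its call ended in B6 without library 1, 2 or 5 (highest adjusted p = 0.121) and in 87 without library 15 or 16 (highest adjusted p = 0.0986). Without library 16, Ccn2 in 87 had a log2 fold change of 1.10 (adjusted p = 0.0986).

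Promoter sequence was at hand for 21 of the 34 members, as 28 windows of 250 bases before annotated starts from RefSeq on GRCm38.p6, a different build from that of the counts (GRCm39). Each window was searched on both strands for GGAATG (the core letters bound by TEAD), CAGACA (SMAD) and TGANTCA (AP-1), whose matches do not overlap in the windows printed here. GGAATG was found in 3 of the 28 member windows (Ccn1, Mfap2 and Ogn) and in 12.6% of all 32851 windows of the table. CAGACA was found in 9 member windows of 8 genes and in 17.1% of all windows, and TGANTCA in 3 member windows (Ecm1, Efemp1 and Tnxb) and 6.75% of all windows. A match describes letters only. Ccn1, the member that rose most in 87, is shown with Mfap2 and Postn, which rose in the other 3 strains, and capitals mark the matches. The Ccn1 window, chr3:145649986-145650235 on the minus strand, holds CATTCC, the reverse complement of GGAATG, 103 bases before the start.
Ccn1: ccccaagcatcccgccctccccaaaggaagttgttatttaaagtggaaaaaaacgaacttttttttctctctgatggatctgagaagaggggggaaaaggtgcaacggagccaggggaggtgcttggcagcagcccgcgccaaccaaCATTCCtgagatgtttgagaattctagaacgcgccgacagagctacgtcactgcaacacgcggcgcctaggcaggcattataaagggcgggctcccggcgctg
The upstream of the 2 Mfap2 windows, chr4:141010174-141010423 on the plus strand, holds GGAATG 176 bases and TGTCTG, the reverse complement of CAGACA, 216 bases before the start, and the other Mfap2 window holds none of the letters searched.
Mfap2: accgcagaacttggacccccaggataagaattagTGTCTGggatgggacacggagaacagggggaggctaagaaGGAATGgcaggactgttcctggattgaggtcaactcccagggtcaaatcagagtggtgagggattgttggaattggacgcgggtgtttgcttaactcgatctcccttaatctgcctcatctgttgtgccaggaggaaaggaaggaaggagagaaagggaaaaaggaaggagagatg
The Postn window at the start of an annotated transcript, chr3:54360857-54361106 on the plus strand, holds none of the 3 sets of letters.
Postn: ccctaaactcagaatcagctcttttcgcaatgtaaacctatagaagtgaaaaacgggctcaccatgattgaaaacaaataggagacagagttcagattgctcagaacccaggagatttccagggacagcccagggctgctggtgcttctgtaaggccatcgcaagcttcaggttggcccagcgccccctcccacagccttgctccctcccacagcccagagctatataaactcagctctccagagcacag

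Fn1 encodes fibronectin, the adhesive protein on which many other matrix proteins are laid down. It fell in 87 and passed the test in no other strain: log2 fold changes ± SE were 0.69 ± 0.53 in B6 (adjusted p = 0.377), -0.04 ± 0.52 in D2 (adjusted p = 0.965), 1.45 ± 0.53 in 67 (adjusted p = 0.0581) and -1.61 ± 0.54 in 87 (adjusted p = 0.0398). In 87, Fn1 ranged over 51.4 to 77.1 CPM in WT and 4.74 to 38.1 CPM in CMD, with library 16 at the lowest value. In 67, where it ranged over 31.6 to 85.1 CPM in WT and 107 to 183 CPM in CMD, the CMD libraries all lay above WT. The Fn1 call ended in 87 without library 13, 14, 15, 16 or 17 (highest adjusted p = 0.117). Without library 16, Fn1 in 87 had a log2 fold change of -1.13 (adjusted p = 0.117).

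The other 8 genes of this role passed in no strain: Tnc, Tnxb, Thbs1, Thbs2, Sparc, Sparcl1, Ecm1 and Tgfbi. Tnc encodes tenascin C, a protein of injured and developing tissue, and ranged over 2.85 to 9.44 CPM in WT and 15.1 to 19.02 CPM in CMD in B6 without overlap (adjusted p = 0.113). In 67, Tnc ranged over 5.77 to 14.5 CPM in WT and 6.60 to 13.9 CPM in CMD. The thrombospondin gene Thbs1, whose product activates latent TGF-beta, ranged over 3.27 to 10.1 CPM in WT and 4.04 to 33.7 CPM in CMD in 87, where library 16 alone exceeded the WT libraries. In B6, Thbs1 ranged over 5.61 to 8.92 CPM in WT and 10.7 to 24.8 CPM in CMD. In 67, it ranged over 3.57 to 10.8 CPM in WT and 14.3 to 30.1 CPM in CMD. Every CMD library lay above WT in B6 and 67, and the D2 groups overlapped. Thbs2 showed its highest value in library 1, at 50.3 CPM. Sparc, a collagen-binding glycoprotein, ranged over 149.7 to 296 CPM in WT and 296 to 338 CPM in CMD in B6 and 203 to 492 CPM in WT and 85.3 to 288 CPM in CMD in 87. Sparcl1, its close relative, ranged over 105 to 144 CPM in WT and 196 to 249 CPM in CMD in B6 without overlap (adjusted p = 0.0659) and over 199 to 261 CPM in WT and 143 to 165 CPM in CMD in D2, where CMD lay below WT (adjusted p = 0.189). Tnxb, tenascin X, ranged over 56.7 to 80.8 CPM in WT and 20.97 to 51.8 CPM in CMD in 87, with all CMD libraries below WT (adjusted p = 0.0754). Ecm1 and Tgfbi, both secreted matrix glycoproteins, were above WT in every CMD library of 67 (adjusted p = 0.183 and 0.163).

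**Figure D2:**
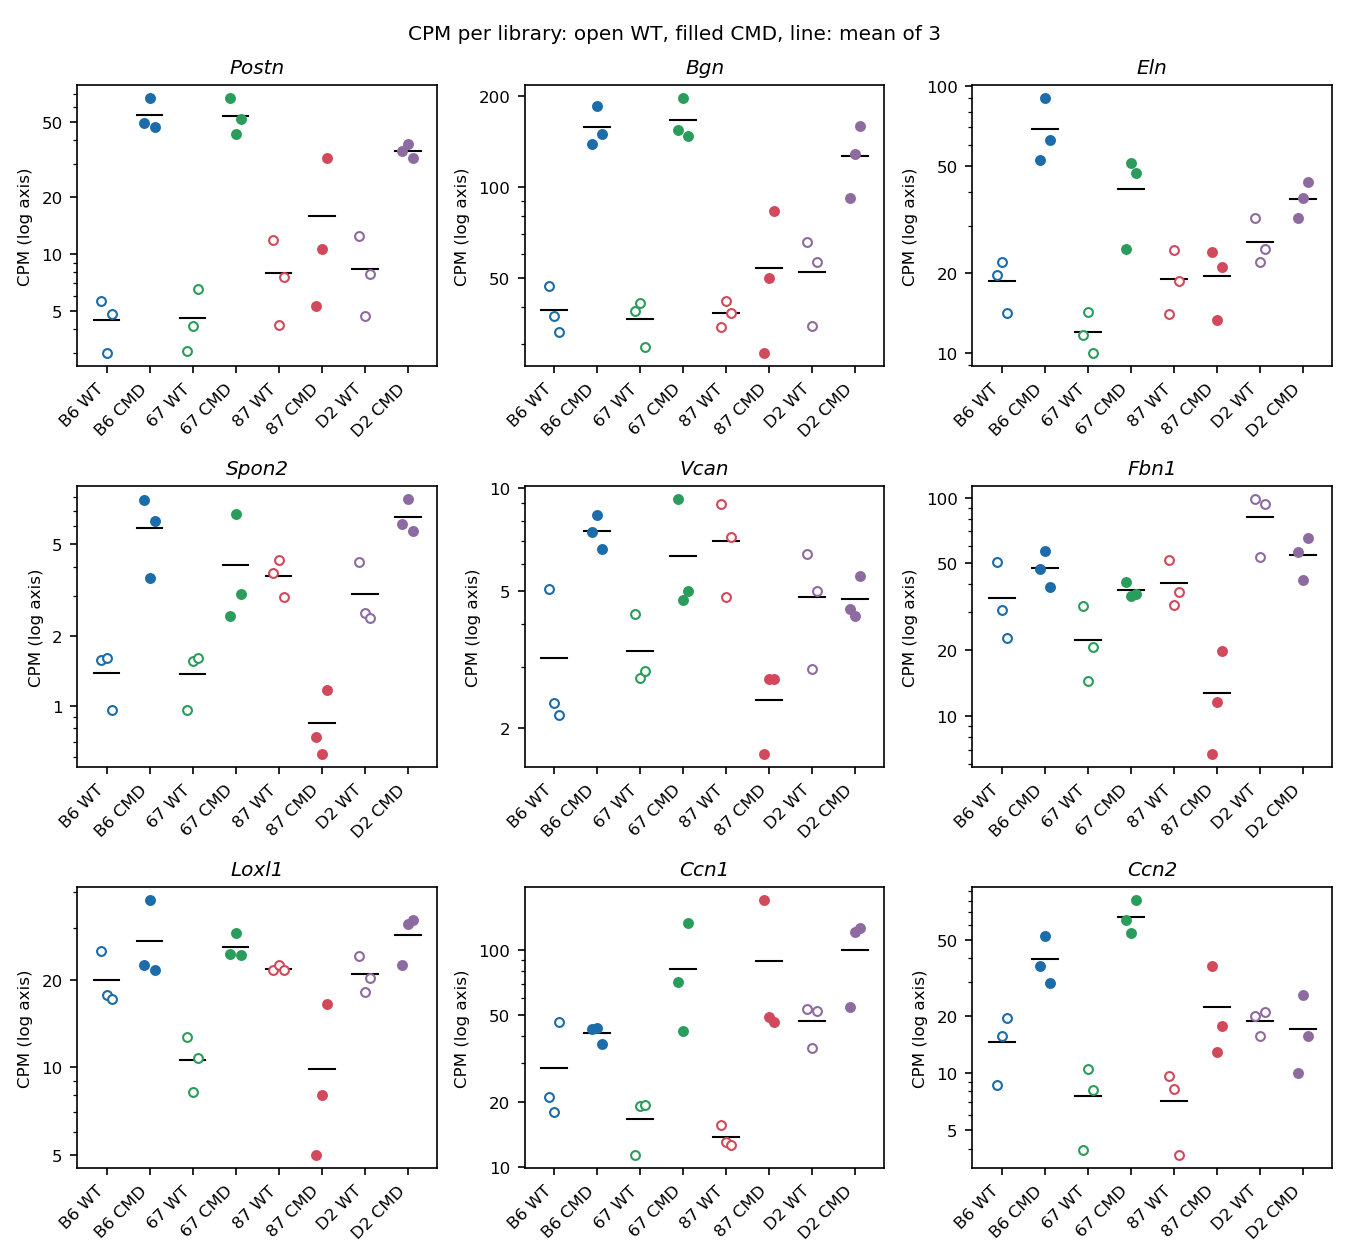
CPM (log axes) in each library for 9 genes, by group (horizontal axis, 3 libraries per group; open points WT, filled points CMD, lines the mean of 3). Postn, Bgn and Eln were higher in B6 and 67 CMD than in WT, Spon2, Vcan, Fbn1 and Loxl1 were lower in 87 CMD than in 87 WT, and Ccn1 was highest in library 16.

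Of the 11 elastic fibre and microfibril genes, 6 rose in B6, 7 in 67 and 4 in D2, while 3 fell and 0 rose in 87. The shares of all genes were 8.07%, 11.4% and 11.2% for the rises, and 9.38% and 11.5% for falls and rises in 87. Eln encodes elastin, the rubber-like core of elastic fibres. In B6, Eln was measured at 19.7, 22.003 and 14.2 CPM in the WT libraries and 52.9, 90.2 and 62.9 CPM in the CMD libraries. In 67, Eln was measured at 11.7, 14.3 and 9.98 CPM in the WT libraries and 24.5, 51.6 and 47.1 CPM in the CMD libraries. Both strains separated CMD from WT, and the B6 CMD libraries held the 3 highest Eln values of all 24. In 87, Eln was measured at 14.1, 24.4 and 18.5 CPM in the WT libraries and 23.96, 13.3 and 20.9 CPM in the CMD libraries. In D2, Eln was measured at 31.99, 21.8 and 24.5 CPM in the WT libraries and 31.9, 37.99 and 43.5 CPM in the CMD libraries. The groups overlapped in 87 and, by library 19, in D2. For Eln the log2 fold changes ± SE were 1.88 ± 0.29 in B6 (adjusted p = 0.000601), 0.53 ± 0.28 in D2 (adjusted p = 0.182), 1.78 ± 0.29 in 67 (adjusted p = 0.000493) and 0.03 ± 0.28 in 87 (adjusted p = 0.956). Eln stayed past the threshold in B6 and 67 with any single library left out (highest adjusted p = 0.00611).

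Fbn1 and Fbn2 encode fibrillins, which build the microfibrils that scaffold elastin and hold latent TGF-beta complexes. They showed different patterns. In 87, Fbn1 was measured at 51.8, 32.3 and 37.1 CPM in the WT libraries and 6.66, 11.5 and 19.8 CPM in the CMD libraries, and every CMD library lay below every WT library. In B6, Fbn1 was measured at 50.9, 30.6 and 22.8 CPM in the WT libraries and 46.9, 56.8 and 38.8 CPM in the CMD libraries. In 67, Fbn1 was measured at 31.8, 14.5 and 20.6 CPM in the WT libraries and 41.2, 35.5 and 36.3 CPM in the CMD libraries. CMD libraries of 67 lay above WT, but the test was not passed, and in B6 the groups overlapped. In D2, Fbn1 was measured at 98.7, 53.3 and 93.1 CPM in the WT libraries and 56.1, 41.97 and 65.5 CPM in the CMD libraries. Its mean WT level was highest in D2. For Fbn1 the log2 fold changes ± SE were 0.45 ± 0.36 in B6 (adjusted p = 0.398), -0.58 ± 0.36 in D2 (adjusted p = 0.246), 0.76 ± 0.36 in 67 (adjusted p = 0.14) and -1.67 ± 0.37 in 87 (adjusted p = 0.00365). Fbn1 stayed past the threshold in 87 with any single library left out (highest adjusted p = 0.0192). Without library 16, Fbn1 in 87 had a log2 fold change of -1.36 (adjusted p = 0.0192).

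Fbn2, the fibrillin best known from development, was scarce and its values rest on few reads: 13 reads over the 3 WT libraries and 95 over the 3 CMD libraries in B6, 11 and 57 in 67, 17 and 24 in 87, and 15 and 106 in D2. In B6, Fbn2 was measured at 0.201, 0.120 and 0.0778 CPM in the WT libraries and 0.730, 0.865 and 0.738 CPM in the CMD libraries. In 67, Fbn2 was measured at 0.107, 0 and 0.190 CPM in the WT libraries and 0.411, 0.600 and 0.289 CPM in the CMD libraries. In D2, Fbn2 was measured at 0.222, 0.0241 and 0.0832 CPM in the WT libraries and 0.961, 0.354 and 0.639 CPM in the CMD libraries. All CMD libraries of these strains lay above all WT libraries. In 87, Fbn2 was measured at 0.167, 0.162 and 0.0833 CPM in the WT libraries and 0.105, 0.197 and 0.267 CPM in the CMD libraries, and the groups overlapped. For Fbn2 the log2 fold changes ± SE were 2.55 ± 0.69 in B6 (adjusted p = 0.0167), 2.52 ± 0.68 in D2 (adjusted p = 0.0147), 2.10 ± 0.71 in 67 (adjusted p = 0.0415) and 0.49 ± 0.71 in 87 (adjusted p = 0.679). The Fbn2 call ended in B6 without library 2, 3 or 5 (highest adjusted p = 0.0743), in 67 without library 4, 5, 6, 7, 8, 10, 11, 12 or 21 (highest adjusted p = 0.137) and in D2 without library 20 or 21 (highest adjusted p = 0.0769). With sex from Y-linked reads as a term, the log2 fold change of Fbn2 in D2 was 2.08 (adjusted p = 0.0537).

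Mfap2 and Mfap4 encode microfibril-associated proteins. In B6, Mfap2 was measured at 2.82, 0.957 and 1.71 CPM in the WT libraries and 3.55, 5.01 and 2.90 CPM in the CMD libraries. In 67, Mfap2 was measured at 1.84, 1.73 and 1.36 CPM in the WT libraries and 3.09, 4.12 and 3.45 CPM in the CMD libraries. In D2, Mfap2 was measured at 1.82, 1.76 and 1.54 CPM in the WT libraries and 4.20, 4.23 and 6.24 CPM in the CMD libraries. It was higher in every CMD library of these 3 strains, with library 1 the highest WT library of B6. In 87, Mfap2 was measured at 2.26, 2.70 and 2.04 CPM in the WT libraries and 0.918, 2.27 and 1.97 CPM in the CMD libraries, and library 16 was the lowest of all 24. For Mfap2 the log2 fold changes ± SE were 1.07 ± 0.34 in B6 (adjusted p = 0.0342), 1.52 ± 0.34 in D2 (adjusted p = 0.00491), 1.11 ± 0.34 in 67 (adjusted p = 0.0246) and -0.44 ± 0.34 in 87 (adjusted p = 0.384). Mfap2 stayed past the threshold in D2 with any single library left out (highest adjusted p = 0.0303), and its call ended in B6 without library 2, 3, 4 or 5 (highest adjusted p = 0.159) and in 67 without library 8, 9, 11 or 12 (highest adjusted p = 0.103).

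Mfap4, which binds elastin and fibrillin, rose more steeply. In B6, Mfap4 was measured at 7.22, 3.05 and 2.70 CPM in the WT libraries and 20.7, 29.5 and 26.1 CPM in the CMD libraries. In 67, Mfap4 was measured at 5.87, 5.38 and 3.51 CPM in the WT libraries and 30.6, 29.4 and 22.9 CPM in the CMD libraries. Both differed without overlap. In 87, Mfap4 was measured at 2.17, 4.70 and 2.90 CPM in the WT libraries and 2.41, 4.35 and 17.5 CPM in the CMD libraries, where library 18 stood above all others of that strain. In D2, Mfap4 was measured at 8.19, 3.19 and 7.43 CPM in the WT libraries and 9.85, 24.6 and 23.6 CPM in the CMD libraries, with library 22 near the WT values. For Mfap4 the log2 fold changes ± SE were 2.56 ± 0.58 in B6 (adjusted p = 0.00624), 1.63 ± 0.55 in D2 (adjusted p = 0.0441), 2.49 ± 0.57 in 67 (adjusted p = 0.0051) and 1.32 ± 0.56 in 87 (adjusted p = 0.102). Mfap4 stayed past the threshold in B6 and 67 with any single library left out (highest adjusted p = 0.0402), and its call ended in D2 when any library but 1, 3, 13, 14, 16, 17, 18 and 22 was left out (highest adjusted p = 0.185). With sex from Y-linked reads as a term, the log2 fold change of Mfap4 in D2 was 1.46 (adjusted p = 0.0887). Without library 16, Mfap4 in 87 had a log2 fold change of 1.76 (adjusted p = 0.0339), past the threshold.

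Fbln1 and Fbln2 encode fibulins, which bridge elastic fibres, basement membranes and proteoglycans. In B6, Fbln1 was measured at 11.7, 7.53 and 7.42 CPM in the WT libraries and 17.9, 17.3 and 19.9 CPM in the CMD libraries. In 67, Fbln1 was measured at 9.12, 13.2 and 8.05 CPM in the WT libraries and 38.8, 27.4 and 34.7 CPM in the CMD libraries. CMD exceeded WT in both strains without overlap. In 87, Fbln1 was measured at 6.74, 7.37 and 6.29 CPM in the WT libraries and 3.59, 4.16 and 8.92 CPM in the CMD libraries. In D2, Fbln1 was measured at 22.4, 12.5 and 19.5 CPM in the WT libraries and 18.2, 45.2 and 45.6 CPM in the CMD libraries, and library 22, at the level of WT, made the groups overlap. For Fbln1 the log2 fold changes ± SE were 1.05 ± 0.34 in B6 (adjusted p = 0.038), 1.003 ± 0.34 in D2 (adjusted p = 0.0406), 1.73 ± 0.34 in 67 (adjusted p = 0.00184) and -0.28 ± 0.34 in 87 (adjusted p = 0.604). Fbln1 stayed past the threshold in 67 with any single library left out (highest adjusted p = 0.0161), and its call ended in B6 without library 2, 3, 4, 5 or 6 (highest adjusted p = 0.134) and in D2 without library 2, 4, 5, 7, 13, 14, 15, 20, 21, 23 or 24 (highest adjusted p = 0.189). With sex from Y-linked reads as a term, the log2 fold change of Fbln1 in D2 was 0.93 (adjusted p = 0.0797).

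Fbln2 moved by smaller steps, upward in B6 and 67 and downward in 87. In B6, Fbln2 was measured at 47.5, 41.02 and 46.3 CPM in the WT libraries and 62.1, 78.99 and 65.2 CPM in the CMD libraries. In 67, Fbln2 was measured at 45.02, 45.9 and 35.4 CPM in the WT libraries and 55.8, 69.1 and 61.7 CPM in the CMD libraries. In 87, Fbln2 was measured at 48.5, 47.9 and 41.3 CPM in the WT libraries and 21.9, 30.8 and 36.8 CPM in the CMD libraries. None of these comparisons had overlapping libraries. In D2, Fbln2 was measured at 63.3, 43.7 and 65.7 CPM in the WT libraries and 41.3, 39.7 and 54.1 CPM in the CMD libraries, with overlap. For Fbln2 the log2 fold changes ± SE were 0.61 ± 0.19 in B6 (adjusted p = 0.0274), -0.35 ± 0.18 in D2 (adjusted p = 0.174), 0.56 ± 0.19 in 67 (adjusted p = 0.0356) and -0.62 ± 0.19 in 87 (adjusted p = 0.0225). The Fbln2 call ended in B6 without library 2, 3 or 5 (highest adjusted p = 0.121), in 67 without library 7, 8, 9, 11 or 12 (highest adjusted p = 0.165) and in 87 without library 13, 14 or 16 (highest adjusted p = 0.115). Without library 16, Fbln2 in 87 had a log2 fold change of -0.44 (adjusted p = 0.115).

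Of the remaining elastic fibre genes, Emilin1 and Efemp1 were called in 1 strain each. Emilin1, a glycoprotein at the elastin to microfibril interface, rose in 67 by 0.89 ± 0.32 on the log2 scale (SE, adjusted p = 0.0496), and ranged there over 3.86 to 6.45 CPM in WT and 7.60 to 12.4 CPM in CMD. The Emilin1 call ended in 67 when any library but 2, 12, 16 and 18 was left out (highest adjusted p = 0.202). In B6 and D2, all CMD libraries were also above WT for Emilin1, at 4.45 to 7.52 CPM in WT and 9.50 to 11.6 CPM in CMD in B6 and 6.42 to 7.92 CPM in WT and 10.9 to 14.3 CPM in CMD in D2, where the test was not passed (adjusted p = 0.0873 and 0.0629). Without library 16, the log2 fold change of Emilin1 in D2 was 0.81 (adjusted p = 0.012). Efemp1 (fibulin 3) fell in 87 by 1.71 ± 0.51 on the log2 scale (SE, adjusted p = 0.0231), and ranged there over 7.48 to 13.2 CPM in WT and 0.629 to 5.64 CPM in CMD. The Efemp1 call ended in 87 without library 13, 16 or 17 (highest adjusted p = 0.086). Without library 16, Efemp1 in 87 had a log2 fold change of -1.22 (adjusted p = 0.0663). It was also below WT in all CMD libraries of 67 and D2, where the test was not passed (adjusted p = 0.188 and 0.331). Fbln5 and Efemp2, fibulins needed for elastic fibre assembly, passed in no strain. Fbln5 stayed between 5.25 and 14.5 CPM over all 24 libraries, and Efemp2 between 1.81 and 8.10 CPM.

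Among the 3 lysyl oxidases, which cross-link collagen and elastin, Loxl1 and Loxl2 rose in 67 and fell in 87, and none passed in B6 or D2. Loxl1 is the family member most tied to elastin. In 67, Loxl1 was measured at 12.7, 8.22 and 10.8 CPM in the WT libraries and 24.4, 29.01 and 24.4 CPM in the CMD libraries. In 87, Loxl1 was measured at 21.5, 22.4 and 21.6 CPM in the WT libraries and 4.98, 8.004 and 16.5 CPM in the CMD libraries. The groups were apart in both strains, in opposite directions. In B6, Loxl1 was measured at 25.2, 17.7 and 17.1 CPM in the WT libraries and 22.5, 37.6 and 21.6 CPM in the CMD libraries. In D2, Loxl1 was measured at 24.1, 18.1 and 20.3 CPM in the WT libraries and 22.4, 31.1 and 32.04 CPM in the CMD libraries. Those groups overlapped. For Loxl1 the log2 fold changes ± SE were 0.45 ± 0.31 in B6 (adjusted p = 0.323), 0.45 ± 0.30 in D2 (adjusted p = 0.294), 1.30 ± 0.31 in 67 (adjusted p = 0.00664) and -1.14 ± 0.31 in 87 (adjusted p = 0.0133). Loxl1 stayed past the threshold in 67 with any single library left out (highest adjusted p = 0.0384), and its call ended in 87 without library 16 (highest adjusted p = 0.0649). Without library 16, Loxl1 in 87 had a log2 fold change of -0.82 (adjusted p = 0.0649).

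Loxl2 followed the same directions. In 67, Loxl2 was measured at 11.5, 6.97 and 7.73 CPM in the WT libraries and 18.8, 21.01 and 11.4 CPM in the CMD libraries, with libraries 7 and 12 overlapping. In 87, Loxl2 was measured at 17.1, 13.4 and 11.7 CPM in the WT libraries and 2.73, 7.41 and 9.99 CPM in the CMD libraries, without overlap. Library 16 was again the lowest. In B6, Loxl2 was measured at 17.5, 11.7 and 10.7 CPM in the WT libraries and 18.2, 21.1 and 17.1 CPM in the CMD libraries. In D2, Loxl2 was measured at 16.2, 11.5 and 14.1 CPM in the WT libraries and 15.5, 11.3 and 18.6 CPM in the CMD libraries. For Loxl2 the log2 fold changes ± SE were 0.50 ± 0.34 in B6 (adjusted p = 0.314), 0.12 ± 0.34 in D2 (adjusted p = 0.823), 0.96 ± 0.34 in 67 (adjusted p = 0.0491) and -1.06 ± 0.34 in 87 (adjusted p = 0.0333). The Loxl2 call ended in 67 when any library but 1, 7, 12, 16, 18, 23 and 24 was left out (highest adjusted p = 0.169) and in 87 without library 13, 14 or 16 (highest adjusted p = 0.124). Without library 16, Loxl2 in 87 had a log2 fold change of -0.69 (adjusted p = 0.124). Lox, the founding member of the family, passed in no strain. It ranged over 6.02 to 35.5 CPM in WT and 20.01 to 27.8 CPM in CMD in B6, where library 1 was the highest of all 24, and over 4.10 to 9.66 CPM in WT and 12.99 to 21.9 CPM in CMD in D2, where CMD lay above WT (adjusted p = 0.125).

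Of the 6 small leucine-rich proteoglycans, 2 rose in B6, 3 in 67 and 1 in D2, and 1 fell in 87. The shares of all genes were 8.07%, 11.4% and 11.2% for the rises and 9.38% for falls in 87. Bgn encodes biglycan, a proteoglycan of the muscle fibre surface and matrix. In B6, Bgn was measured at 46.7, 37.4 and 32.9 CPM in the WT libraries and 139, 185 and 149 CPM in the CMD libraries. In 67, Bgn was measured at 38.8, 41.1 and 29.3 CPM in the WT libraries and 154, 198 and 148 CPM in the CMD libraries. In D2, Bgn was measured at 65.7, 34.7 and 56.1 CPM in the WT libraries and 91.7, 129 and 159 CPM in the CMD libraries. All 3 strains were without overlap, and every CMD library of B6 and 67 exceeded 138 CPM. In 87, Bgn was measured at 34.2, 41.8 and 38.2 CPM in the WT libraries and 28.02, 49.8 and 83.4 CPM in the CMD libraries, with library 16 below all 3 WT libraries. For Bgn the log2 fold changes ± SE were 2.02 ± 0.31 in B6 (adjusted p = 0.000535), 1.28 ± 0.30 in D2 (adjusted p = 0.00692), 2.19 ± 0.31 in 67 (adjusted p = 0.000149) and 0.50 ± 0.30 in 87 (adjusted p = 0.251). Bgn stayed past the threshold in B6 and 67 with any single library left out (highest adjusted p = 0.00609), and its call ended in D2 without library 20 (highest adjusted p = 0.052).

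Aspn encodes asporin, a small leucine-rich protein that binds collagen and TGF-beta. In B6, Aspn was measured at 18, 5.71 and 9.15 CPM in the WT libraries and 41.4, 36.4 and 33.7 CPM in the CMD libraries. In 67, Aspn was measured at 18.4, 10.4 and 7.67 CPM in the WT libraries and 33.5, 36.04 and 31.1 CPM in the CMD libraries. CMD libraries lay well above WT in both. In 87, Aspn was measured at 12.9, 6.59 and 6.85 CPM in the WT libraries and 4.56, 11.2 and 16.1 CPM in the CMD libraries. In D2, Aspn was measured at 10.99, 7.94 and 15.9 CPM in the WT libraries and 10.6, 11.3 and 13.1 CPM in the CMD libraries. The D2 groups overlapped, and their fitted levels were equal to within 0.01 on the log2 scale. For Aspn the log2 fold changes ± SE were 1.76 ± 0.43 in B6 (adjusted p = 0.00941), 0.00 ± 0.42 in D2 (adjusted p = 0.998), 1.47 ± 0.42 in 67 (adjusted p = 0.0189) and 0.27 ± 0.42 in 87 (adjusted p = 0.696). The Aspn call ended in B6 without library 2 (highest adjusted p = 0.0522) and in 67 without library 8 or 9 (highest adjusted p = 0.0954).

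Lum encodes lumican, a regulator of collagen fibril width, and rose in 67 by 1.42 ± 0.47 on the log2 scale (SE, adjusted p = 0.0382). It ranged there over 24.2 to 26.3 CPM in WT and 48.8 to 84.1 CPM in CMD, and over 13.03 to 26.96 CPM in WT and 33.4 to 38.7 CPM in CMD in B6, where CMD also lay above WT without passing the test (adjusted p = 0.15). The Lum call ended in 67 without library 7, 8, 9, 10 or 11 (highest adjusted p = 0.117). Prelp, which anchors basement membranes to collagen, fell in 87 by 1.58 ± 0.47 on the log2 scale (SE, adjusted p = 0.0215), over ranges of 34.4 to 104 CPM in WT and 8.42 to 35.3 CPM in CMD that overlapped. The Prelp call ended in 87 without library 13, 16 or 17 (highest adjusted p = 0.188). Without library 16, Prelp in 87 had a log2 fold change of -1.21 (adjusted p = 0.095). Dcn (decorin) and Ogn (osteoglycin) passed in no strain. In 87, Dcn ranged over 216 to 248 CPM in WT and 89.8 to 188 CPM in CMD without overlap (adjusted p = 0.101). In B6 it ranged over 186 to 459 CPM in WT and 242 to 353 CPM in CMD, with library 1 the highest of all 24, as library 1 also was for Ogn at 81.03 CPM.

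Vcan encodes versican, a large proteoglycan that binds hyaluronan in provisional matrix. In B6, Vcan was measured at 5.07, 2.36 and 2.18 CPM in the WT libraries and 7.43, 8.33 and 6.64 CPM in the CMD libraries. In 87, Vcan was measured at 8.96, 4.81 and 7.17 CPM in the WT libraries and 1.68, 2.78 and 2.77 CPM in the CMD libraries. The groups were apart in both strains, above WT in B6 and below WT in 87. In 67, Vcan was measured at 4.29, 2.79 and 2.94 CPM in the WT libraries and 9.28, 4.71 and 5 CPM in the CMD libraries, apart but not past the threshold. In D2, Vcan was measured at 6.41, 2.97 and 5.01 CPM in the WT libraries and 4.44, 4.25 and 5.54 CPM in the CMD libraries, with overlap. For Vcan the log2 fold changes ± SE were 1.23 ± 0.35 in B6 (adjusted p = 0.0221), -0.02 ± 0.35 in D2 (adjusted p = 0.978), 0.92 ± 0.35 in 67 (adjusted p = 0.0666) and -1.53 ± 0.36 in 87 (adjusted p = 0.00535). Vcan stayed past the threshold in 87 with any single library left out (highest adjusted p = 0.0271), and its call ended in B6 without library 2, 3 or 5 (highest adjusted p = 0.0949). Without library 16, Vcan in 87 had a log2 fold change of -1.33 (adjusted p = 0.0271).

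The 87 result moved with a sex term and with which libraries were included. With sex as labelled as a term, 2 members rose and 14 fell in 87, with a median of -0.65 (47.1% of the 34 called, against 24% of all genes). With sex from Y-linked reads, 2 rose and 14 fell, with a median of -0.62 (47.1%, against 24.9%). With library 16 left out, 6 of 34 members (17.6%) were called in 87 in place of 11, close to the 14.7% of all genes called in that fit. Of the 6, 3 rose (Postn, Mfap4 and Ccn1) and 3 fell (Fbn1, Spon2 and Vcan). Over all 14988 genes of that fit, 1089 rose and 1113 fell. The median of the members was -0.33 in place of -0.44. With library 18 left out instead, 2 rose and 15 fell, with a median of -0.84, and the share of all genes called in that fit is not given here. With library 13, the 87 WT library labelled male, left out, 2 rose and 4 fell, with a median of -0.41. Those 6 calls were 17.6% of the 34, against 15.2% of all genes. In a fit of the 6 libraries of 87 alone, 1 member rose (Ccn1) and 1 fell (Spon2), with a median of -0.44.

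Markers of fibroblasts, the main source of matrix in muscle, were also low in 87 CMD. The summed level of 11 markers of fibroblasts and fibro-adipogenic progenitors was 516, 838 and 1163 CPM in 87 CMD libraries 16, 17 and 18 and 1098 to 1614 CPM in 87 WT, and 4 of the 11 fell there, with 0 raised. Of all genes 9.38% fell in 87. Without library 16, 1 of the 11 fell. In the CMD groups of B6, 67 and D2 that sum was 1380 to 1556, 1595 to 1666 and 1263 to 1532 CPM, against 1050 to 2119.8, 957 to 1524 and 837 to 1190 CPM in their WT groups. In B6 1 of the 11 rose, in 67 3 rose, in D2 0 rose, and 0 fell in these strains. Of all genes 8.07%, 11.4% and 11.2% rose there. Of these 11 markers 0 were at 0 reads in any library, and no member belongs to this or another marker list. In 87, the 6 stress and atrophy genes all rose, 3 of them without library 16, which held 9664 CPM of them. The part of the fibroblast RNA, of the stress genes and of library 16 in the 87 result was not tested, beyond the values without that library given above.

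**Figure D3:**
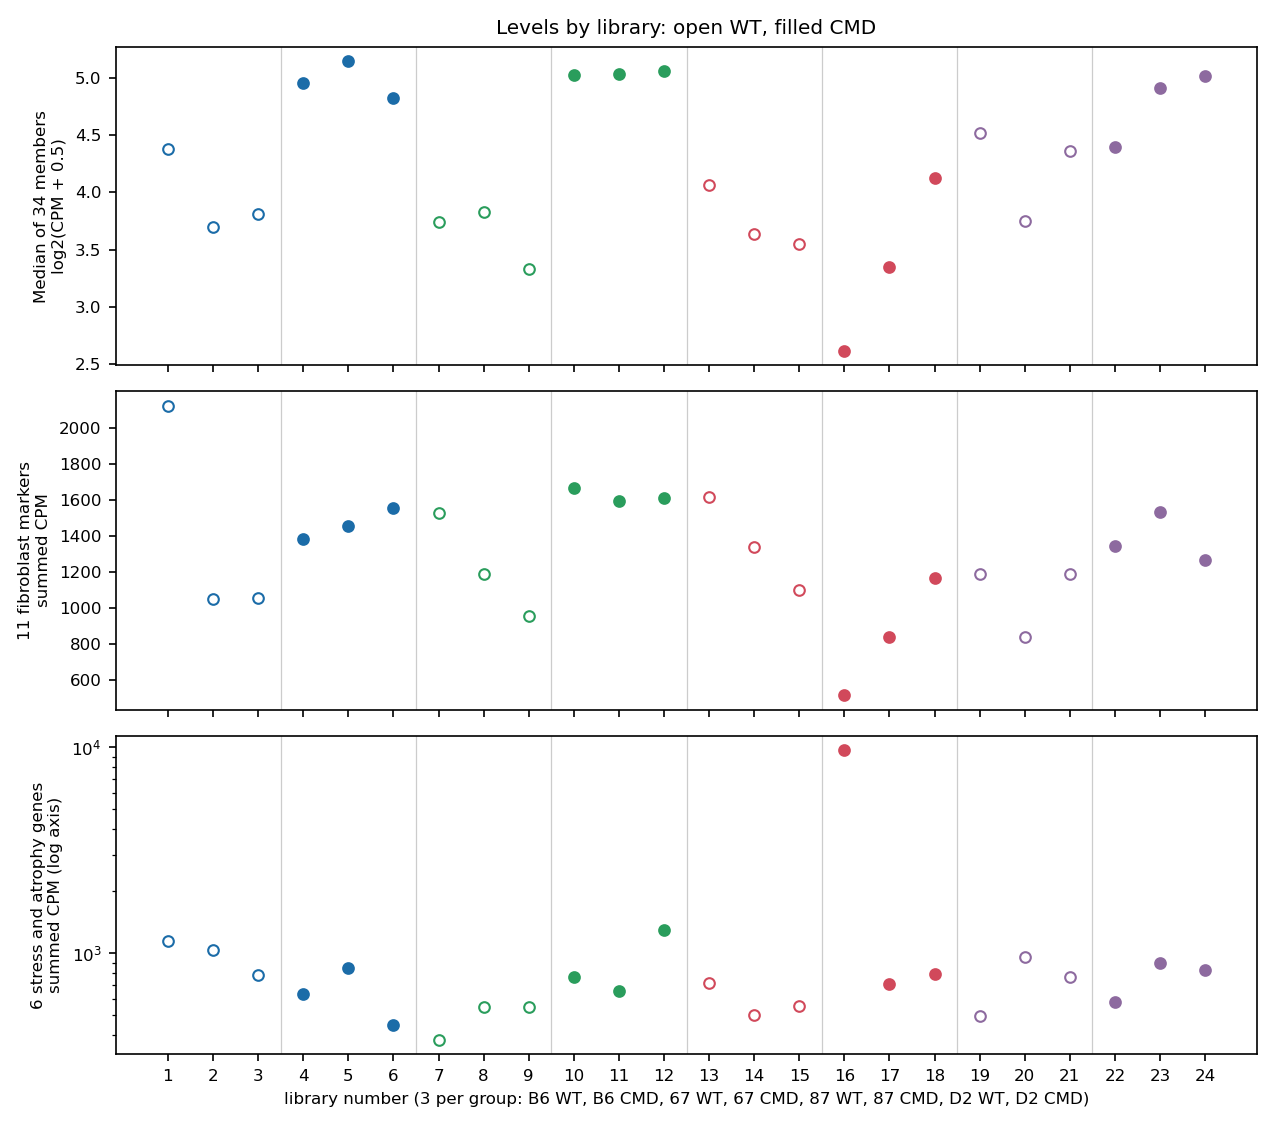
Each of the 24 libraries (horizontal axis, in groups of 3; open points WT, filled points CMD) by the median log2(CPM + 0.5) of the 34 members (top), the summed CPM of 11 fibroblast markers (middle) and the summed CPM of 6 stress and atrophy genes (bottom, log axis). Library 16 has the lowest value in the upper 2 panels and the highest, 9664 CPM, in the bottom panel.

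The D2 result, which rests on the libraries labelled D2 WT and D2 CMD, moved with how sex was coded. The number of members that rose in D2 was 7 without a sex term and 13 with sex as labelled. The members called were 20.6% and 38.2% of the 34, against 20.2% and 25.4% of all genes. With sex from Y-linked reads 4 rose (Postn, Ccn1, Mfap2 and Bgn), and 1, Fbn1, changed by -1.002 (adjusted p = 0.0339) on the log2 scale. With sex coded from these reads, the 5 calls were 14.7% of the 34, below the 16.8% of all genes. That coding used a threshold of 5 CPM of Y-linked reads, which put all 3 D2 WT libraries below it and 2 of 3 D2 CMD libraries above it, so with these libraries sex and genotype cannot be fully told apart in D2. With the 4 D2 libraries whose reads went against their label left out, a setting chosen after the data were seen, 1 WT and 1 CMD library remained, whose spread was assumed to be that of the other groups, and 2 members rose. Leaving out library 20, the WT library with low values, left 2 calls in D2. There were 3 calls without library 21, 4 without library 23 or 24, and 11 without library 16 of 87. Those 11 were 32.4% of the 34, close to the 28.5% of all genes called in that fit. For the fits without library 20, 21, 23 or 24 the share of all genes is not given here. In D2 CMD, 5 of 7 Schwann cell genes (1 without library 23) and 7 of 12 macrophage genes (also 7 without library 23) rose. Fewer of both passed with the 4 libraries left out. Library 23 was the highest of its group for 10 of 34 members (31.1% of all tested genes) and the lowest for 10 (34.9%), close to the shares of all genes. Without libraries 16 and 23, 5 members rose in D2 and 1 fell (17.6% of the 34, against 18.1% of all genes).

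The CMD effect differed among the 4 strains for 7 of 34 members in an F test of the interaction (4.67% of all tested genes). These were Spon2 (adjusted p = 0.00218), Vcan (0.00831), Fbln2 (0.00929), Loxl1 (0.0119), Eln (0.0143), Fbn1 (0.0208) and Ccn2 (0.0208). Pairs of strains were then compared. The effect on Spon2 was higher in B6 than in 87 by 4.20 ± 0.55 (SE, adjusted p = 0.00403) on the log2 scale, the only gene of all 14789 called for that pair (0.00676% of genes). Between 67 and 87, 2 of 34 members differed (0.142% of all genes): Spon2 by 3.68 ± 0.55 (SE, adjusted p = 0.0114) and Loxl1 by 2.44 ± 0.44 (SE, adjusted p = 0.0421). Between 87 and D2, 3 differed (7.9% of all genes): Spon2 by -3.22 ± 0.54 (SE, adjusted p = 0.00124), Mfap2 by -1.95 ± 0.48 (SE, adjusted p = 0.016) and Loxl1 by -1.60 ± 0.43 (SE, adjusted p = 0.0288), lower in 87 each time. Against D2, Fbln2 was higher in B6 by 0.97 ± 0.26 (SE, adjusted p = 0.0433) (1 of 34, 3.62% of all genes), and Ccn2 was higher in 67 by 3.28 ± 0.62 (SE, adjusted p = 0.0148) (1 of 34, 1.28%). Between B6 and 67, edgeR called 0 members (0.00676% of all genes), with 2 at an unadjusted p under 0.05 (8.53% of all genes). At an unadjusted p under 0.05 the interaction F test counted 22 of 34 members, against 22.3% of all genes.

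These interaction calls were not equally stable. Of them, Spon2 passed the F test under every alternative run and with any single library left out (highest adjusted p = 0.00998). Eln, Fbln2, Loxl1 and Vcan passed with any single library left out, and failed where 4 D2 libraries were left out. The Fbn1 call ended without library 13 (adjusted p = 0.0514) and the Ccn2 call without library 21 or 24 (highest adjusted p = 0.0581). Among the pairs, the Spon2 difference of 67 and 87 ended without library 16 (adjusted p = 0.0512) and the Mfap2 difference without library 21 or 24 (highest adjusted p = 0.0545). The Loxl1 difference of 67 and 87 ended when any library but 1, 5, 7, 12, 18, 20, 22, 23 and 24 was left out, and that of 87 and D2 without library 13, 14, 15, 16, 17, 20, 21, 23 or 24. The Fbln2 difference ended without library 1, 2, 5, 6, 10, 12, 19, 21, 22 or 23. In number, the F test called 12 members without library 1 and 14 without library 18, and the pairs, 5 members in all, became 9 without library 1, 19 without library 18 and 2 without library 21. The F test called 16 members with DESeq2 (47.1% of the 34, against 12.3% of all genes), 22 with sex as labelled (64.7%, against 10.5%) and 11 with sex from Y-linked reads (32.4%, against 5.16%).

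WT muscle of the 4 strains differed in 3 of 34 members by an F test (8.66% of all tested genes), a share close to that of all genes: Fbn1 (adjusted p = 0.00922), Spon2 (0.0236) and Fbln1 (0.0367). Mean WT levels of Fbn1 were 34.7 ± 14.5 CPM (SD, n = 3) in B6, 22.3 ± 8.77 in 67, 40.4 ± 10.2 in 87 and 81.7 ± 24.8 in D2. D2 exceeded B6 by 1.23 ± 0.36 on the log2 scale (SE, adjusted p = 0.0412), the 1 member called for that pair (7.38% of all genes). Spon2 in WT was 1.38 ± 0.368 CPM in B6, 1.38 ± 0.360 in 67, 3.66 ± 0.660 in 87 and 3.04 ± 1.01 in D2, with 87 the highest mean. Fbln1 in WT was 8.88 ± 2.43 CPM in B6, 10.1 ± 2.71 in 67, 6.80 ± 0.543 in 87 and 18.1 ± 5.09 in D2. The Fbn1 call ended without library 19 or 21, the Spon2 call without library 3, 7, 14 or 19, and the Fbln1 call without library 2, 3, 4, 5, 7, 9, 13, 14, 15, 19 or 21 (highest adjusted p = 0.0626, 0.0621 and 0.217). The next 3 by p were Ccn1, Ccn2 and Eln (adjusted p = 0.0543, 0.0777 and 0.0787), which did not pass. The 3 calls became 0 without library 19, 1 without library 7, 14 or 21, 5 without library 18 and 7 without library 16. Against B6, edgeR called 0 members in 67 WT (0.0203% of all genes), with 3 at an unadjusted p under 0.05 (9.76%), and 0 in 87 WT (0.0541% of all genes), with 4 at an unadjusted p under 0.05 (8.2%).

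**Figure D4:**
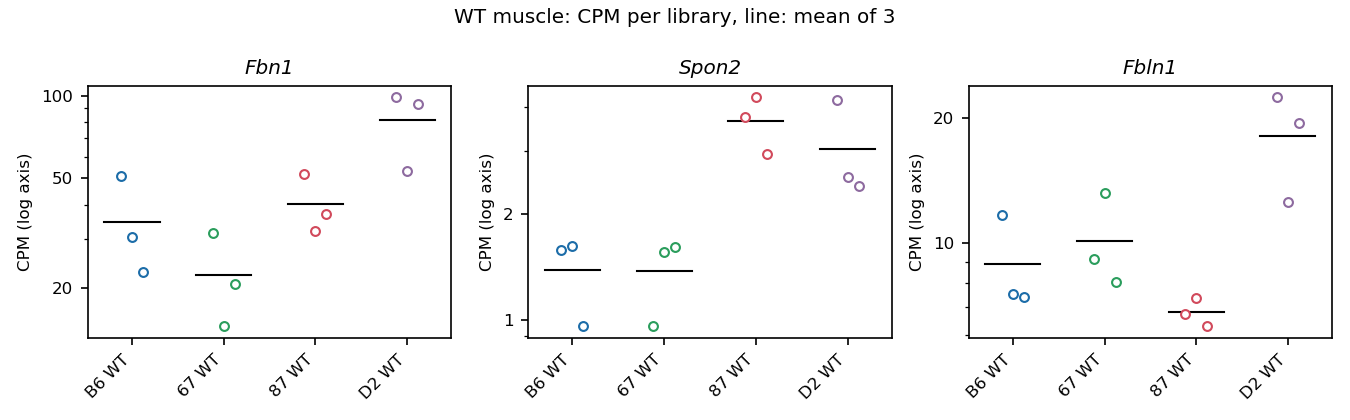
CPM (log axes) of Fbn1, Spon2 and Fbln1 in the 3 WT libraries of each strain (points), with a line at the mean of 3. Fbn1 and Fbln1 have their highest means in D2 and Spon2 has its highest mean in 87.

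Levels were compared between genes only per length, by the deposited TPM. In B6 WT muscle, Dcn was the most abundant member at 272 ± 133 TPM (SD, n = 3), followed by Sparc at 151 ± 53.7 and Sparcl1 at 87.2 ± 19.3. Library 1 held the highest Dcn and Sparc values of that group. Bgn stood at 33.2 ± 5.13 TPM in B6 WT and 119 ± 20.1 in B6 CMD, and Postn at 2.78 ± 0.696 and 30.1 ± 6.32. In 67 CMD, Dcn was at 349 ± 39.2 TPM, Sparc at 228 ± 44.5 and Bgn at 146 ± 21.8. In 87 CMD, Dcn was at 118 ± 41.8, Sparc at 113 ± 66.9 and Bgn at 38.8 ± 20.4. Dcn, Sparc and Sparcl1, abundant in WT muscle, were called in 0 strains.

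Other matrix glycoproteins and proteoglycans outside the 34 were counted for comparison, from a list of 68 genes of which 64 were tested (2 of the 68 are also fibroblast markers here, 5 tendon markers and 1 a cartilage marker). In B6 14 rose and 1 fell, in 67 13 rose and 0 fell, in 87 6 rose and 8 fell, and in D2 11 rose and 1 fell. The 6 and 8 of 64 in 87 compare with 11.5% of all genes that rose and 9.38% that fell. In B6, 67 and D2, 8.07%, 11.4% and 11.2% of all genes rose and 10.4%, 10.3% and 9.03% fell. Without library 16, 4 rose and 4 fell in 87, and without library 23, 6 rose and 1 fell in D2. Their median log2 fold change was 0.47, 0.54, -0.35 and 0.87 in that order. Mgp, a matrix inhibitor of calcification, rose by 3.02 ± 0.55 (SE, adjusted p = 0.00175) in B6, 3.68 ± 0.57 (SE, adjusted p = 0.000317) in 67 and 1.76 ± 0.52 (SE, adjusted p = 0.0243) in D2. Spp1 (osteopontin) rose by 4.34 ± 0.62 (SE, adjusted p = 0.000165) in 67, 2.40 ± 0.57 (SE, adjusted p = 0.00637) in 87 and 2.08 ± 0.52 (SE, adjusted p = 0.00952) in D2. Cilp rose by 3.30 ± 0.60 (SE, adjusted p = 0.000977) in 67, 2.07 ± 0.57 (SE, adjusted p = 0.0149) in 87 and 2.86 ± 0.59 (SE, adjusted p = 0.00293) in D2. In B6, Ltbp2, a binding partner of fibrillin, rose by 3.33 ± 0.83 (SE, adjusted p = 0.0108) and Ccn4 by 2.92 ± 0.60 (SE, adjusted p = 0.00369). In 87, Npnt, an integrin ligand, rose by 2.86 ± 0.97 (SE, adjusted p = 0.0426), whereas Fmod (fibromodulin) fell by 2.12 ± 0.71 (SE, adjusted p = 0.0399), Ccn3 by 1.64 ± 0.36 (SE, adjusted p = 0.00366) and Pcolce2, an enhancer of procollagen processing, by 1.50 ± 0.37 (SE, adjusted p = 0.00781). The calls of Npnt and Fmod in 87 ended without library 16, and those of Mgp and Spp1 in D2 ended without library 23.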

How the data were processed

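Per the labels' protocols, RNA was isolated with TRIzol and paired-end stranded mRNA libraries were read on an Illumina NextSeq. Reads were placed on GRCm39 (mm39), per the submitters' processing notes, and aligner and counter: not given in the sources used here. For each library the authors deposited raw counts per Ensembl gene (unique and total exon reads) and TPM, of which TPM served only to compare levels between genes. Total exon reads (97.7% to 98.2% unique) were fitted in edgeR 4.0.16 (R 4.3.3) for all genes: filterByExpr by group (minimum count 10, minimum total 15), TMM, 8 group terms, glmQLFit and glmQLFTest, with Benjamini-Hochberg adjustment over 14789 genes and a threshold of 0.05. The mean prior degrees of freedom were 3.74. The fitting script was tested on simulated data. P-values measure the spread between these samples, which the labels number but do not describe as separate litters or days. Every library was given for members called in 2 or more strains, for members of the interaction F test and for the 6 smallest p-values among WT groups, and the others by range. From other lists, at most the 3 largest called changes per strain were named. Members and lists were chosen with earlier results of these data known. Alternatives were RLE scaling, no filter, sex terms, unique reads, DESeq2, single strains and left-out libraries.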

Additional observations from a re-analysis of the deposited data

Results flagged for a closer look

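The CMD effect on 7 members differed among the 4 strains by a test of the difference itself. The adjusted p-values of the interaction F test in edgeR were 0.00218 for Spon2, 0.00831 for Vcan, 0.00929 for Fbln2, 0.0119 for Loxl1, 0.0143 for Eln, 0.0208 for Fbn1 and 0.0208 for Ccn2.

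Between pairs of strains, 8 differences of 5 members passed the test. Members called and the share of all genes called were 1 (2.94% of 34) and 0.00676% for B6 and 87, 2 (5.88%) and 0.142% for 67 and 87, 1 (2.94%) and 1.28% for 67 and D2, 1 (2.94%) and 3.62% for B6 and D2, and 3 (8.82%) and 7.9% for 87 and D2. The share for 87 and D2 was near that of all genes, and the share for B6 and D2 was below it. For Spon2, the log2 fold change of CMD against WT was 4.20 ± 0.55 (SE, adjusted p = 0.00403) higher in B6 than in 87, and 3.68 ± 0.55 (SE, adjusted p = 0.0114) higher in 67 than in 87. The 87 effect minus the D2 effect was -3.22 ± 0.54 (SE, adjusted p = 0.00124) for Spon2, -1.95 ± 0.48 (SE, adjusted p = 0.016) for Mfap2 and -1.60 ± 0.43 (SE, adjusted p = 0.0288) for Loxl1. The effect on Loxl1 was higher in 67 than in 87 by 2.44 ± 0.44 (SE, adjusted p = 0.0421). Fbln2 differed by 0.97 ± 0.26 (SE, adjusted p = 0.0433) between B6 and D2, and Ccn2 by 3.28 ± 0.62 (SE, adjusted p = 0.0148) between 67 and D2.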

How the results depend on the processing

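No called change reversed direction under any alternative run, and RLE scaling and unique reads kept the number of members called in each comparison. In 87 the 11 calls became 6 without libraries 16 and 23, of which 4 were among the 11, and 2 in a fit of that strain alone. In D2 the 7 calls became 13 with sex as labelled, 12 in a fit of D2 alone and 2 without libraries 19, 21, 22 and 24. The 7 calls among the strains became 22 with sex as labelled, 11 with sex from Y-linked reads, 16 with DESeq2 and 1 without those 4 libraries. The 5 members that differed in a pair became 24, 13, 20 and 1 under these settings. The 3 calls among WT groups became 5 with sex as labelled, 9 with DESeq2, 7 without libraries 16 and 23 and 0 without the 4 D2 libraries. Over all genes, the share called among the strains was 4.67% in the reported fit and 10.5%, 5.16%, 12.3% and 0.242% under these 4 settings, and in at least 1 pair 9.18%, and 19.4%, 9.34%, 16.1% and 1.93%. In D2 it was 20.2%, and 25.4% with sex as labelled, 16.4% in a fit of D2 alone and 5.28% without the 4 libraries. In 87 it was 20.8%, and 15% without libraries 16 and 23 and 2.59% in a fit of that strain alone. The cause of these changes was not tested, beyond the smaller number of libraries where some were left out. With 1 library left out, calls ranged from 5 to 16 in B6, 9 to 19 in 67, 6 to 17 in 87, 2 to 11 in D2, 6 to 14 among the strains, 2 to 19 in the pairs and 0 to 7 among WT groups. The share of all genes called moved too. In B6 it was 7.59% without library 2 and 25.3% without library 16. In 67 it was 14.8% without library 11 and 28.3% without library 16. The libraries that moved a count by over 1.5 times are named beside each result. No paired analysis was possible because libraries of different groups share no number. Depth limited Fbn2, at 11 to 106 reads per group.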

Other observations

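Markers of other cell types gave the values below, with no test of a list as a whole. Over all tested genes, 8.07%, 11.4%, 11.5% and 11.2% rose in B6, 67, 87 and D2, and 10.4%, 10.3%, 9.38% and 9.03% fell. Of 8 tendon cell genes, Thbs4 and Comp rose in B6, by 2.58 ± 0.51 (SE, adjusted p = 0.00292) and 1.99 ± 0.60 (SE, adjusted p = 0.0263) on the log2 scale, 3 of the 8 rose in 67, and in D2 Thbs4 rose by 1.59 ± 0.49 (SE, adjusted p = 0.0296) and the tendon transcription factor Scx by 1.04 ± 0.33 (SE, adjusted p = 0.0347). In 87, 0 of the 8 rose and Fmod fell. Without library 23, Scx was not called in D2, and without library 16, Fmod was not called in 87. The summed tendon level was 355 to 600.4 CPM in B6 CMD and 25.9 to 119 CPM in 87 CMD, with 2 of the 8 genes at 0 reads in library 16.

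Of 12 macrophage genes, 1 rose in B6 and in 87 (in 87, 0 without library 16), 5 in 67 and 7 in D2. Trem2, a receptor of lipid-handling macrophages, rose by 3.03 ± 0.70 (SE, adjusted p = 0.00742) in B6 and 4.06 ± 0.74 (SE, adjusted p = 0.000982) in 67. The pan-macrophage gene Adgre1 rose by 3.50 ± 0.69 (SE, adjusted p = 0.00226) in D2. Of 7 Schwann cell genes, 5 rose in D2, among them the myelin gene Mbp by 2.08 ± 0.40 (SE, adjusted p = 0.00182), where library 23 held the highest sum, and 1 rose in 67. Without library 23, Mbp alone of these passed in D2. Of 7 adipocyte genes, Cfd alone rose, in D2, by 3.64 ± 1.05 (SE, adjusted p = 0.0208), and it was not called without library 23.

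Sox9, a transcription factor of cartilage, rose in all 4 strains: by 1.85 ± 0.35 (SE, adjusted p = 0.00225) in B6, 2.22 ± 0.35 (SE, adjusted p = 0.000393) in 67, 2.97 ± 0.36 (SE, adjusted p = 5.06e-05) in 87 and 2.10 ± 0.35 (SE, adjusted p = 0.000684) in D2. Runx2, a bone transcription factor, rose in D2 by 1.79 ± 0.42 (SE, adjusted p = 0.00716). The summed level of the 7 cartilage and bone genes, of which 3 were tested, was 1.33 to 3.08 CPM over WT libraries and 4.22 to 16.8 CPM over CMD libraries.

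Of 9 smooth muscle and pericyte genes, 2 rose in B6, 1 in 67, 0 in 87 and 1 in D2 (0 without library 23). Of 8 endothelial genes, 2 rose in B6, 0 were called in 67, and 1 fell in each of 87 and D2. The 5 blood genes passed in 0 strains. Of 9 muscle fibre genes, 3 fell in B6, 6 in 67, 3 in 87 and 1 in D2, and 2 rose in 67 and in 87, the myosin genes Myh1 and Myh2. Without library 23, 0 fell in D2. In that list the fast myosin gene Myh4 fell by 1.69 ± 0.35 (SE, adjusted p = 0.00415) in B6, 2.08 ± 0.36 (SE, adjusted p = 0.000722) in 67 and 0.998 ± 0.35 (SE, adjusted p = 0.0477) in 87, where the call ended without library 16. Of the 6 stress and atrophy genes, 1 rose in B6, 3 in 67, 6 in 87 (3 without library 16) and 1 in D2.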
